A study of Mus musculus with 4 samples.

Results

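The cells described here were adenoma cells and normal crypt cells that came out of the same dissociated tumors of the mouse small intestine and were compared within each single-cell RNA sequencing library. A barcode was kept with at least 4000 UMIs (unique molecular identifiers, 1 per captured transcript), at least 200 genes and at most 20% of UMIs from mitochondrial genes. A kept barcode was called an adenoma cell if at least 2 of Prox1, Notum and Nkd1 were detected and their UMIs summed to at least 3. It was called a normal crypt cell if those genes had no UMI, if Clca3b, Fgfbp1 and Myb together had at least 3, and if it held no UMI of Ptprc, Chga or Dclk1, which mark leukocytes, enteroendocrine cells and tuft cells. The members were thus chosen by their UMI counts of these genes. Of 10152 kept barcodes, 3415 were adenoma cells and 803 were crypt cells. The other barcodes, from enterocytes to immune and stromal cells, entered no test.

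All mice carried the ApcMin/+ allele on the C57BL/6 strain, were 11 weeks old and were labelled male. The 2 ApcMin libraries had the genotype ApcMin/+;Lef1 +/+, and the 2 VApcMinL libraries had ApcMin/+;Lef1 fl/fl; Villin-Cre, in which Cre is driven by the promoter of an epithelial brush border gene from early life. Each library pooled 3 to 10 unsorted tumors, and the labels do not say from how many mice. The 10x Genomics 3′ chemistry was version 2 for both libraries numbered 1 and version 3 for both numbered 2. Values over the 4 libraries are listed by replicate number, ApcMin before VApcMinL, so that the first pair shares one kit and the last pair the other.

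In the healthy crypt, Wnt ligands from the niche keep β-catenin stable, and β-catenin with LEF and TCF factors switches on genes for stem cell identity and growth, together with inhibitors that limit the signal. Apc is part of the complex that destroys β-catenin. Cells of an ApcMin adenoma have lost Apc function and keep the pathway on without a ligand. Normal crypt cells, among them stem cells and their dividing daughters, therefore form a close normal comparison, since they also carry Wnt activity, but under control of the niche. However, Prox1, Notum and Nkd1 are themselves switched on by Wnt. Crypt cells with a UMI of these genes were left out, and adenoma cells were chosen for them. How far this choice set the differences below in LEF and TCF, Wnt and stem cell genes was not tested.

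The libraries held 44660305, 49009488, 98714025 and 128247396 UMIs. They gave 460, 550, 367 and 2038 adenoma cells and 237, 150, 130 and 286 crypt cells, so VApcMinL replicate 2 supplied most adenoma cells. Median depth was 22796, 18590, 34780 and 26982 UMIs per adenoma cell and 17736, 18125, 34722 and 21041.5 per crypt cell. Levels are given as CPM, the UMIs of a gene summed over all cells of a state in a library and scaled to a total of 1000000, and a sum does not tell more cells with a transcript from more transcript per cell. The crypt sums held 4679757, 3237925, 5116521 and 7156704 UMIs. A crypt level below 1 CPM therefore rests on few UMIs, and the size of such a difference is uncertain. ApcMin replicate 1 shared 8 kept barcodes with VApcMinL replicate 1 and 1 with VApcMinL replicate 2, and none of these was an adenoma or crypt cell.

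Markers of sex did not follow the labels. Xist, expressed from the inactive X chromosome, was found without Y-linked UMIs in 99.3% of adenoma cells and 100% of crypt cells of VApcMinL replicate 1. In VApcMinL replicate 2, 25.2% of adenoma and 31.1% of crypt cells had only Xist, and 56.7% and 52.8% had only Y-linked UMIs, so that library held at least 1 animal of each kind. Both Xist and Y-linked UMIs were found in 11.3% of its adenoma cells and 3.50% of its crypt cells. Whether these barcodes held more than 1 cell was not tested. Both ApcMin libraries held Y-linked UMIs, and 0 of their adenoma or crypt cells had Xist alone. Because both states of a library came from the same pool, animals, kit and genotype were shared within each pair.

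The rule genes separated the states by construction and were not tested. Prox1, a homeobox factor of adenoma cells, stood at 108, 288, 381 and 171 CPM in adenoma cells, Notum, a secreted enzyme that inactivates Wnt ligands, at 104, 426, 274 and 94.2 CPM, and Nkd1, an intracellular Wnt inhibitor, at 166, 646, 454 and 162 CPM. All 3 were at 0 in crypt cells. When Prox1 was left out of the rule, it was still at 109 to 404 CPM in adenoma cells against 2.42 to 6.98 CPM in crypt cells. Left out in turn, Notum was at 95.6 to 494 CPM against 2.47 to 6.69 CPM and Nkd1 at 171 to 776 CPM against 2.57 to 7.62 CPM. Each marker thus also separated cells chosen without it. The 3 were picked together as adenoma markers, so this shows that they go together and is no independent check of the label.

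The crypt markers were read in the same way and with the same limit. Left out of the rule, Clca3b was at 239 to 344 CPM in crypt cells and 6.2 to 12.6 CPM in adenoma cells. Fgfbp1 was at 42.6 to 96.3 CPM against 1.32 to 3.78 CPM, and Myb, a factor of crypt progenitors, at 53.3 to 99.4 CPM against 5.63 to 26.9 CPM. Every library gave the same order for these 6 genes. Cells just inside the adenoma threshold, with a sum of 3, had 26.3 to 37.6 CPM of Prox1, and cells just outside, with 2 markers at 1 UMI each, had 18.5 to 28.3 CPM. Cells just inside the crypt threshold had 34.9 to 94.4 CPM of Clca3b, and those with a sum of 2 had 17.0 to 65.7 CPM. The rule itself fixes these values. Of genes outside the rule, Cps1 was at 6.56 to 87.5 CPM in cells just inside the adenoma threshold and at 281 to 436 CPM in those just inside the crypt threshold. Wif1 (0 to 2.36 against 0 to 1.59 CPM), Ptn (0 to 6.71 against 0 to 3.19 CPM) and Olfm4 (0 to 10.5 against 0 to 14.6 CPM) overlapped at the thresholds. In cells just outside the adenoma threshold, Olfm4 reached 158 CPM in ApcMin replicate 2 and 121 CPM in VApcMinL replicate 2. The rule was not symmetric: 3.27 to 15.7% of adenoma cells also reached the crypt sum, 1.62 to 3.00% held a Ptprc UMI and 8.93 to 16.6% held Chga or Dclk1.

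**Figure D1:**
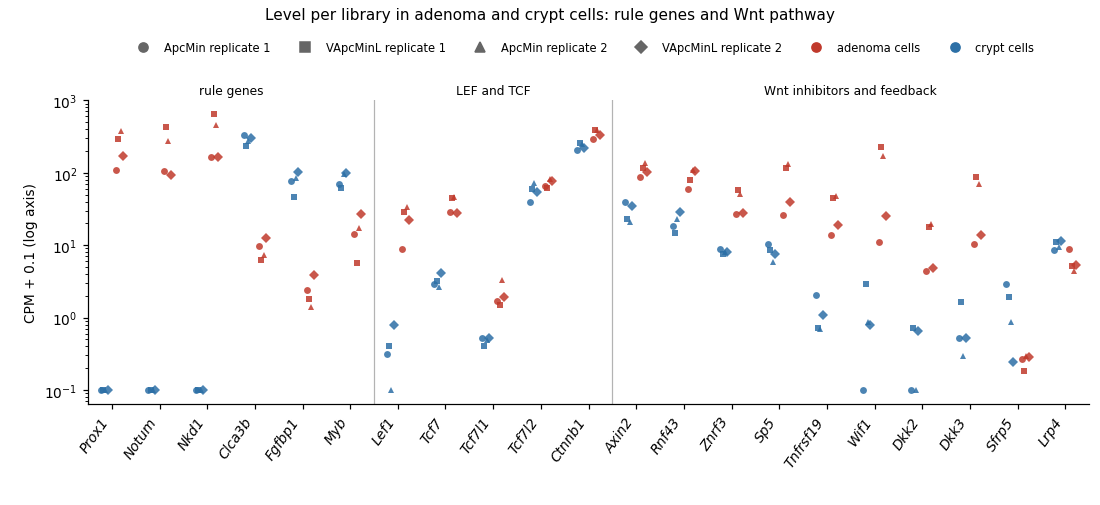
Level of the rule genes, the LEF and TCF factors and the Wnt inhibitors in the summed adenoma cells (red) and crypt cells (blue) of each library, as CPM + 0.1 on a log axis; each marker shape is 1 library. Lef1 lies between 8.86 and 33.9 CPM in adenoma cells and at or below 0.699 CPM in crypt cells, and Wif1, Dkk2 and Dkk3 are also far apart between the states.

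The 2 states differed widely. Of 12946 genes tested with edgeR on the sums of the 4 pairs, 6749 (52.1%) passed an adjusted p of 0.05. Of all tested genes 27.4% were higher and 24.7% were lower in adenoma cells, that is 3548 and 3201 genes. A change of more than 2-fold was called for 2104 higher and 1134 lower genes, and of more than 4-fold for 1313 and 455. The direction was the same in all 4 libraries for 6534 of the called genes. Scaling by library totals alone, without the trimmed mean of M-values (TMM) that edgeR uses, gave 4852 higher and 2166 lower genes. That scaling moved the median over all genes from 0.02 to 0.21 on the log2 scale, so each change below is relative to a median near 0. Counts of list members below are read against the shares of 27.4% and 24.7%. Of all tested genes, 8120 had the same direction in all 4 libraries. How many had levels without overlap between the states was not counted, so non-overlap below describes only the genes named. The labels do not say that the replicates were separate mice, so p-values measure the spread between these libraries.

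**Figure D2:**
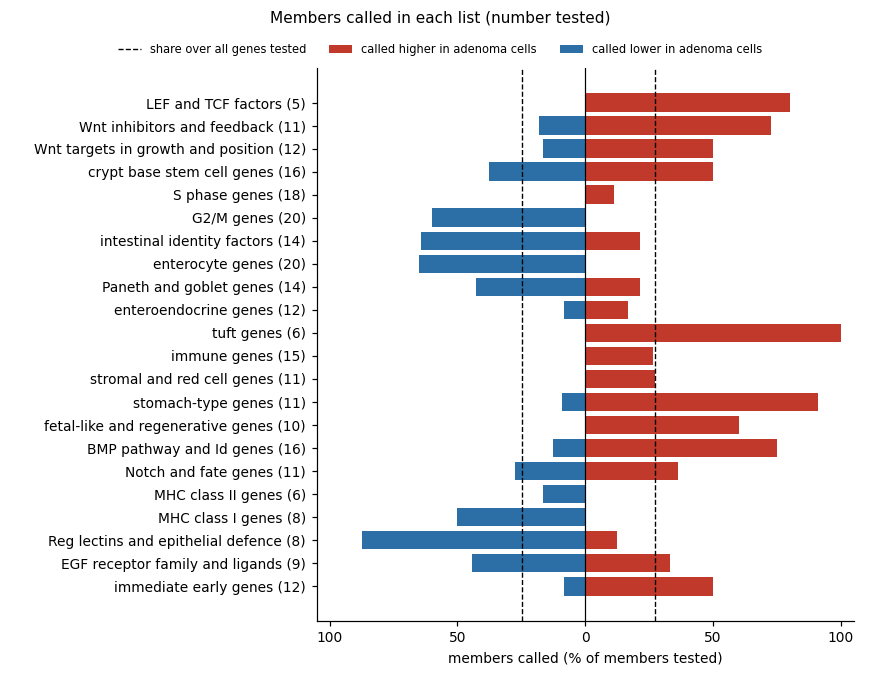
Share of the tested members of each gene list called higher (red, to the right) or lower (blue, to the left) in adenoma cells, with the number tested in parentheses; the dashed lines are the shares over all 12946 genes, 27.4% higher and 24.7% lower. Stomach-type genes, BMP pathway genes, LEF and TCF factors and Wnt inhibitors reach far to the right, and Reg lectins, enterocyte genes and intestinal identity factors to the left.

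Lef1 (ENSMUSG00000027985, GRCm38 chr3:131110471-131224356, plus strand), the transcription factor deleted by design in VApcMinL, was all but absent from crypt cells and present in adenoma cells. It stood at 8.86, 29.0, 33.9 and 22.1 CPM in adenoma cells and at 0.214, 0.309, 0 and 0.699 CPM in crypt cells, where 7 UMIs were counted in all. No adenoma value overlapped a crypt value, and the edgeR fit gave log2 difference 5.83 ± 0.39 (SE) and adjusted p = 1.19e-05. Leaving out VApcMinL replicate 2 raised this value to 6.96. Among adenoma cells, the levels under the VApcMinL and ApcMin labels overlapped. The kits count the 3′ end of a transcript, which can stay in place when internal exons are lost, so this level does not check the deletion.

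The other factors that pair with β-catenin split. Tcf7 was at 28.3, 45.2, 46.0 and 28.0 CPM in adenoma cells and 2.78, 3.09, 2.54 and 4.05 CPM in crypt cells (log2 difference 3.27 ± 0.21 SE, adjusted p = 1.12e-05). Tcf7l1, a repressor in many stem cells, rose from 0.427, 0.309, 0.391 and 0.419 CPM to 1.60, 1.39, 3.17 and 1.81 CPM (log2 difference 2.12 ± 0.43 SE, adjusted p = 0.00364). Ctnnb1, which encodes β-catenin itself, rose by less, from 203, 258, 248 and 220.1 CPM to 294, 386, 389.9 and 328 CPM (log2 difference 0.39 ± 0.07 SE, adjusted p = 0.00157). Tcf7l2, the main TCF factor of the normal intestine, had 66.4, 61.2, 81.9 and 76.9 CPM in adenoma and 38.9, 59.3, 72.9 and 53.7 CPM in crypt cells, values that overlapped and did not pass the test (log2 difference 0.18 ± 0.13 SE, adjusted p = 0.269). Thus 4 of 5 members were higher, with a median difference of 2.12 on the log2 scale against 0.02 over all genes.

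Of 15 Wnt inhibitors and feedback genes, 11 were measured well enough to test, 8 were higher, 2 were lower and the median difference was 2.03. Notum and Nkd1 of the rule belong to the same kind of gene, so this list is close to what chose the cells. Wif1 (ENSMUSG00000020218, GRCm38 chr10:121033960-121100650), which binds Wnt ligands outside the cell, was at 10.8, 224, 171 and 25.4 CPM in adenoma cells and 0, 2.78, 0.782 and 0.699 CPM in crypt cells. The states did not overlap, but VApcMinL replicate 1 and ApcMin replicate 2 were far above the other two (log2 difference 6.42 ± 0.28 SE, adjusted p = 2.32e-06). Dkk2, a secreted blocker of Wnt co-receptors, was at 4.30, 17.5, 19.6 and 4.66 CPM against 0, 0.618, 0 and 0.559 CPM, on few crypt UMIs (log2 difference 4.84 ± 0.56 SE, adjusted p = 1.98e-04). Dkk3, a relative of the Dickkopf blockers, was at 10.3, 86.0, 69.5 and 13.8 CPM against 0.427, 1.54, 0.195 and 0.419 CPM (log2 difference 5.89 ± 0.32 SE, adjusted p = 5.51e-06). Both were also highest in VApcMinL replicate 1 and ApcMin replicate 2. Without VApcMinL replicate 2 the value of Dkk2 was 6.17, and without ApcMin replicate 2 that of Dkk3 was 5.19.

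The inhibitors that act inside the cell or at the receptor rose by smaller folds. Axin2, a scaffold of the β-catenin destruction complex and a standard readout of the pathway, was at 88.3, 116, 136 and 102 CPM in adenoma and 39.1, 23.2, 20.5 and 34.9 CPM in crypt cells (log2 difference 1.71 ± 0.23 SE, adjusted p = 4.08e-04). Rnf43 and Znrf3, a pair of ligases that remove Wnt receptors, rose with log2 differences of 1.85 and 2.03, respectively. Tnfrsf19, a receptor of progenitor cells, went from 1.92, 0.618, 0.586 and 0.978 CPM to 13.8, 45.3, 48.3 and 19.0 CPM (log2 difference 4.55 ± 0.40 SE, adjusted p = 4.74e-05), and to 5.25 without ApcMin replicate 1. Sp5, a zinc finger factor induced by β-catenin, rose from 10.3, 8.34, 5.67 and 7.55 CPM to 25.7, 115, 131 and 39.5 CPM (log2 difference 2.79 ± 0.43 SE, adjusted p = 9.07e-04). Sfrp5 and Lrp4 were lower by log2 differences of -2.64 and -1.02, from low levels that overlapped between the states, and Sfrp5 was at -3.48 without VApcMinL replicate 2. Kremen1 did not pass the test (log2 difference 0.47 ± 0.21 SE, adjusted p = 0.0880).

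Promoter sequence was read for genes that moved together, since LEF and TCF factors bind a short core. The letters CTTTG followed by AA, AT, TA or TT were searched on both strands of the RefSeq promoters of GRCm38.p6, each from 250 bases before to 50 bases after a start. They occurred in 16.9% of 32851 promoters. Among the LEF, TCF and Wnt feedback genes that rose, 10 of 12 were matched, and 3 of their 17 promoters (17.6%) held a match. Among the 12 genes with the largest rises given further on, 9 were matched, and 2 of 11 promoters (18.2%) did. Neither share was far from that over all promoters. The matches of the first group were in Lef1, Sp5 and 1 of the 2 promoters of Tnfrsf19, which is not printed. The 250 bases before the start are shown for the other genes with a match, with the matching letters in capitals: Sp5 at chr2:70474673-70474922, 1 of the 4 starts of Lef1 at chr3:131156044-131156293, Bpifb5 at chr2:154223492-154223741 and Spock2 at chr10:60106007-60106256, all on the plus strand.
Sp5: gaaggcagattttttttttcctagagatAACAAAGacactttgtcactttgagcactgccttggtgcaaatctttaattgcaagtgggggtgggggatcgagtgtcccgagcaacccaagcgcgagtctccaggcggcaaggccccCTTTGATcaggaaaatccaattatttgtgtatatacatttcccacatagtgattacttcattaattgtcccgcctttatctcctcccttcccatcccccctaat
Lef1: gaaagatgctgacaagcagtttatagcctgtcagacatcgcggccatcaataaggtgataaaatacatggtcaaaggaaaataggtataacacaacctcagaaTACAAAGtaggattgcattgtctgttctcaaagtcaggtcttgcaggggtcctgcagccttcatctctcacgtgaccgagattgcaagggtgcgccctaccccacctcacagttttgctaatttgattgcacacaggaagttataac
Bpifb5: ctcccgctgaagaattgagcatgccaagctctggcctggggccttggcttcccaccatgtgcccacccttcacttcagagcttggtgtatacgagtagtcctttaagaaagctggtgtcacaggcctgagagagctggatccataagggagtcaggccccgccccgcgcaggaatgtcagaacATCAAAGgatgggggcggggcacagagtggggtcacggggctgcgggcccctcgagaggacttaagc
Spock2: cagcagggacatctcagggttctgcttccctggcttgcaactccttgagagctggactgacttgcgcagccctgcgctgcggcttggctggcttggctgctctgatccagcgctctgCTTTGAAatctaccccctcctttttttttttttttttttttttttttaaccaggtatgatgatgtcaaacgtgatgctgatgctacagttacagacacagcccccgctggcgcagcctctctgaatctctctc
Sp5 held 2 matches, at 222 and 104 bases before its start, and the other 3 held 1 each. The Lef1 start shown lies inside the span of the gene given above, and the other starts of Lef1 held no match. A match gives letters only and no binding.

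Wnt targets in growth and cell position showed no single direction. Of 12 members, 6 were higher and 2 lower, with a median difference of 0.47. Sox17 (ENSMUSG00000025902, GRCm38 chr1:4490931-4497354), an endoderm factor, stood apart with 262, 175, 333 and 373 CPM in adenoma cells and 9.62, 3.40, 0.977 and 11.0 CPM in crypt cells (log2 difference 5.37 ± 0.38 SE, adjusted p = 1.64e-05). Sox4 (log2 difference 1.43 ± 0.12 SE, adjusted p = 4.03e-05), the adhesion receptor Cd44 (log2 difference 0.95 ± 0.13 SE, adjusted p = 5.80e-04) and the matrix protease Mmp7 (log2 difference 1.44 ± 0.24 SE, adjusted p = 0.00153) also rose, the last with 0.86 and no call when Prox1 was left out of the rule (adjusted p = 0.126). Ephb3 and Efnb1, a receptor and a ligand that repel each other and sort crypt from villus cells, went in opposite directions. Ephb3 rose from 17.5, 14.8, 11.1 and 11.5 CPM to 64.6, 57.8, 55.8 and 53.5 CPM (log2 difference 1.91 ± 0.10 SE, adjusted p = 5.62e-06), and Efnb1 fell from 56.4, 54.7, 61.4 and 57.8 CPM to 28.3, 31.0, 33.0 and 32.1 CPM (log2 difference -1.08 ± 0.08 SE, adjusted p = 2.24e-05).

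Other genes of the same list differed less. Myc, a transcription factor of cell growth often named downstream of Apc loss, was at 34.1, 19.8, 30.3 and 44.1 CPM in adenoma and 29.5, 27.5, 22.1 and 21.5 CPM in crypt cells, with overlapping values (log2 difference 0.16 ± 0.20 SE, adjusted p = 0.547). The difference was below 0 in 1 of 4 libraries, and it was -0.0659 without VApcMinL replicate 2. Ccnd2 fell (log2 difference -0.58 ± 0.08 SE, adjusted p = 4.78e-04) and Ccnd1, the other cyclin of entry into the cycle, rose by a log2 difference of 0.21, a call that was lost when any 1 library was left out (adjusted p up to 0.0913) and with the kit as a replicate block (adjusted p = 0.0563). Sox9 had 81.9, 228, 231 and 121 CPM in adenoma and 85.3, 74.7, 70.0 and 89.0 CPM in crypt cells and did not pass the test (log2 difference 0.73 ± 0.28 SE, adjusted p = 0.0553). It was called higher under 14 of 25 other settings, among them RLE scaling (adjusted p = 0.0472), cells thinned to 4000 UMIs (adjusted p = 0.018) and leaving out ApcMin replicate 1 (adjusted p = 0.00887).

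Genes of crypt base stem cells did not move as a group. Of 16 members, 8 were higher, 6 were lower and the median was 0.61. Igfbp4, a secreted binding protein of insulin-like growth factors, rose from 81.0, 59.9, 36.9 and 45.6 CPM to 516, 398, 393 and 411 CPM (log2 difference 2.80 ± 0.13 SE, adjusted p = 2.54e-06). Ascl2, the factor that maintains the stem cell programme, rose from 23.1, 15.4, 8.60 and 15.8 CPM to 54.7, 45.4, 34.0 and 56.9 CPM (log2 difference 1.46 ± 0.13 SE, adjusted p = 4.57e-05). Mex3a (log2 difference 2.55 ± 0.37 SE, adjusted p = 6.75e-04), Cd24a (log2 difference 1.47 ± 0.15 SE, adjusted p = 1.14e-04), Msi1 (log2 difference 1.25 ± 0.17 SE, adjusted p = 4.29e-04) and Prom1 (log2 difference 0.88 ± 0.08 SE, adjusted p = 7.36e-05) also rose, and none of these 6 overlapped between the states.

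Other stem cell genes fell. Olfm4 (ENSMUSG00000022026, GRCm38 chr14:79984081-80023139), a secreted glycoprotein abundant in crypt base cells, was the largest fall by the naming rule. It was at 17.5, 6.18, 624 and 822 CPM in crypt cells and 1.43, 0.489, 4.16 and 18.3 CPM in adenoma cells (log2 difference -5.98 ± 0.53 SE, adjusted p = 4.90e-05). The crypt level was far higher with kit 3 than with kit 2, so the states overlapped across kits and not within a kit. Without ApcMin replicate 2 the value was -5.21. Cells just inside the adenoma and crypt thresholds overlapped in Olfm4, as given above. Smoc2, a matrix protein, fell from 97.7, 80.6, 60.6 and 73.9 CPM to 30.9, 35.6, 33.8 and 27.9 CPM (log2 difference -1.47 ± 0.13 SE, adjusted p = 4.25e-05), and Slc12a2, an ion transporter, from 232, 166, 235 and 318 CPM to 81.1, 83.7, 140.1 and 138 CPM (log2 difference -1.31 ± 0.12 SE, adjusted p = 5.09e-05). Rgmb, Cdk6 and Lrig1, an inhibitor of EGF receptors, were lower by log2 differences of -1.66, -0.98 and -0.94, respectively.

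Lgr5, the receptor for R-spondins and the reference gene of these stem cells, was at 13.3, 69.2, 83.8 and 32.5 CPM in adenoma and 14.5, 9.27, 14.3 and 21.8 CPM in crypt cells. It was higher in 3 of 4 libraries and overlapped between the states (log2 difference 1.23 ± 0.44 SE, adjusted p = 0.0461). The call was lost without ApcMin replicate 2 (log2 0.83, adjusted p = 0.18) and without VApcMinL replicate 1 (0.85, adjusted p = 0.15), and with the kit as a replicate block (adjusted p = 0.0739). Hopx, a gene of slowly cycling stem cells, did not pass the test (log2 difference 0.26 ± 0.11 SE, adjusted p = 0.0812).

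**Figure D3:**
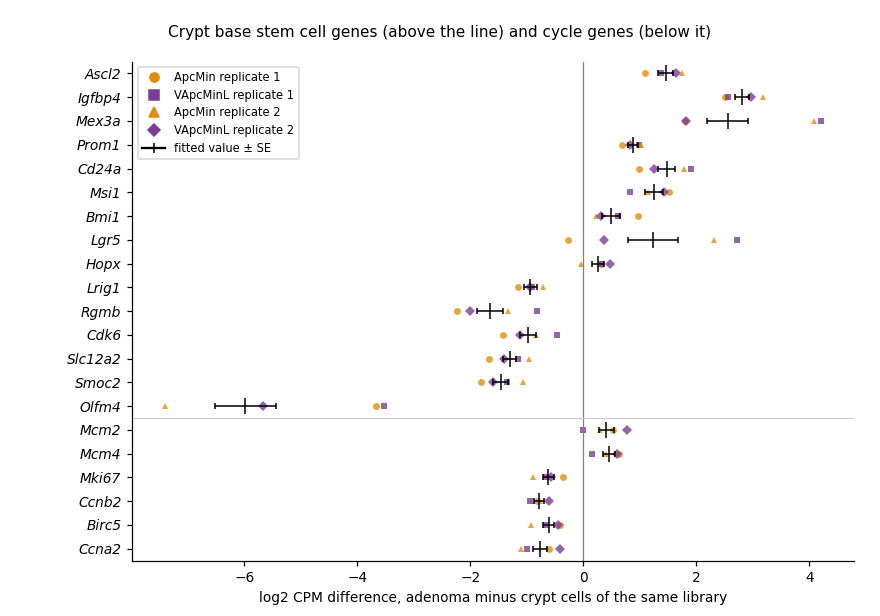
Log2 difference between adenoma and crypt cells of the same library for crypt base stem cell genes (above the line) and cell cycle genes (below it); each point is 1 library, and the black tick with its bar is the edgeR value ± SE. Igfbp4, Mex3a, Cd24a and Ascl2 lie right of 0 in all 4 libraries, Olfm4, Smoc2 and Slc12a2 lie left of it, and Lgr5 spans 0.

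Cell division genes were not higher in adenoma cells. Of 20 genes of the G2 and M phases, 12 were lower and 8 did not pass the test, with a median of -0.42. Mki67, the standard marker of cycling cells, was at 82.4, 58.3, 162 and 194 CPM in adenoma and 94.7, 81.8, 256 and 250.4 CPM in crypt cells, lower in 4 of 4 libraries (log2 difference -0.62 ± 0.10 SE, adjusted p = 9.89e-04). With no library block Mki67 was not called (edgeR adjusted p = 0.325), and 4 of the 20 genes were lower. Cells just inside the adenoma threshold had 68.3, 39.0, 82.0 and 124 CPM of Mki67. Those just inside the crypt threshold had 45.0, 87.7, 29.9 and 87.5 CPM, so the order was reversed in all libraries but VApcMinL replicate 1. How far the choice of crypt cells by Myb and the other markers set these differences was not tested. Ccnb2, a mitotic cyclin, and Birc5, which acts at the dividing chromosomes, fell by log2 differences of -0.78 and -0.61 without overlap. Of 18 S phase genes, 2 were higher and 16 did not pass the test, with a median of 0.04. Mcm4, a subunit of the replicative helicase, was 1 of the 2 (log2 difference 0.46 ± 0.11 SE, adjusted p = 0.00732). It was not called with cells thinned to 4000 UMIs (adjusted p = 0.107) or with no library block (adjusted p = 0.13), and the other, Mcm2, lost its call under 9 settings. Thinned cells gave 0 higher S phase genes and 1 lower. Both states were made up mostly of cells with UMIs of cycling genes: cells with none of 8 such genes made up 10.1 to 28.0% of adenoma cells and 9.33 to 14.0% of crypt cells. The list sum of the G2 and M genes was 1167 to 1912 CPM in adenoma and 1439 to 1901 CPM in crypt cells.

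Intestinal identity was lower in adenoma cells. Of 14 factors, 9 were lower, 3 were higher and the median was -1.17. Cdx1 (ENSMUSG00000024619), a homeobox factor that sets intestinal fate, fell from 181, 160.3, 125 and 154 CPM to 32.0, 8.48, 11.0 and 28.9 CPM (log2 difference -3.29 ± 0.29 SE, adjusted p = 4.61e-05), and its relative Cdx2 from 123, 119.5, 131 and 135 CPM to 52.7, 24.2, 23.2 and 56.1 CPM (log2 difference -1.99 ± 0.23 SE, adjusted p = 2.02e-04). Hnf4a and Hnf4g, nuclear receptors that drive enterocyte genes, fell by log2 differences of -2.17 and -2.34. The 4 libraries had the same direction for these 4 genes, and adenoma and crypt values did not overlap.

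The nuclear receptor Vdr, which binds vitamin D, fell from 86.8, 81.2, 71.1 and 85.8 CPM to 4.56, 5.95, 11.3 and 6.93 CPM (log2 difference -3.72 ± 0.22 SE, adjusted p = 7.34e-06). Isx, a homeobox repressor of vitamin A uptake, fell from 40.4, 48.5, 67.6 and 69.7 CPM to 3.80, 6.61, 6.00 and 5.83 CPM (log2 difference -3.56 ± 0.14 SE, adjusted p = 1.87e-06). Klf5 and Elf3 were lower by log2 differences of -1.05 and -0.55. Against this direction, Klf4, a factor of differentiated cells, rose from 29.1, 28.4, 31.3 and 48.1 CPM to 149, 79.2, 110.2 and 109 CPM (log2 difference 1.51 ± 0.18 SE, adjusted p = 2.38e-04), and Ihh, a hedgehog ligand sent from epithelium to stroma, from 10.7, 8.03, 12.3 and 17.2 CPM to 118, 43.9, 56.1 and 108 CPM (log2 difference 2.51 ± 0.20 SE, adjusted p = 2.59e-05). Gata4, a factor of the proximal intestine, did not pass the test (log2 difference -0.34 ± 0.21 SE, adjusted p = 0.202).

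**Figure D4:**
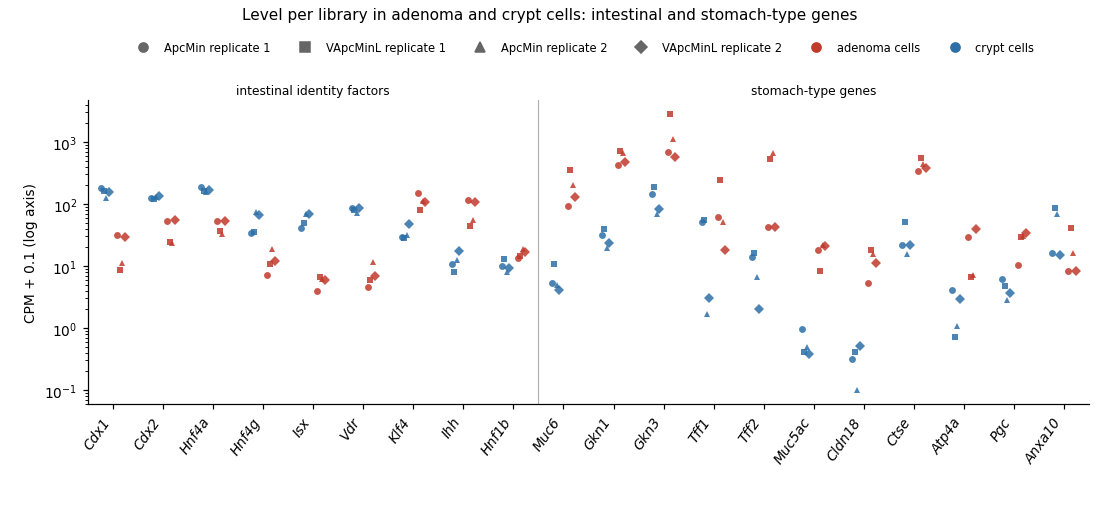
Level of intestinal identity factors (left) and stomach-type genes (right) in the summed adenoma cells (red) and crypt cells (blue) of each library, as CPM + 0.1 on a log axis; each marker shape is 1 library. Cdx1, Hnf4a, Isx and Vdr are lower in the red points without overlap, and Muc6, Gkn1, Ctse and Muc5ac are higher without overlap.

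Stomach-type genes moved the other way. Of 11 tested members, 10 were higher and 1 was lower, with a median of 3.87. The summed level of the list was 1722 to 5327 CPM in adenoma and 160.0 to 454 CPM in crypt cells. Muc6 (ENSMUSG00000048191, GRCm38 chr7:141633456-141655319), the mucin of gastric glands, was at 91.9, 357, 202 and 129 CPM in adenoma and 5.13, 10.8, 4.89 and 4.05 CPM in crypt cells (log2 difference 4.73 ± 0.16 SE, adjusted p = 1.87e-06). Gkn1 and Gkn3, secreted gastrokines of the stomach lining, were at 431, 717, 673 and 468 CPM against 31.6, 39.2, 19.7 and 23.5 CPM (log2 difference 4.14 ± 0.19 SE, adjusted p = 2.53e-06) and at 679, 2829, 1113 and 570.3 CPM against 146, 189.6, 68.6 and 83.4 CPM (log2 difference 3.03 ± 0.29 SE, adjusted p = 7.64e-05). Muc5ac, the mucin of the gastric surface, was at 18.1, 8.24, 21.7 and 21.3 CPM against 0.855, 0.309, 0.391 and 0.279 CPM (log2 difference 5.14 ± 0.29 SE, adjusted p = 5.86e-06). None of these 4 overlapped between the states.

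The list went on with genes of other stomach cells. Ctse, an aspartic protease, rose from 22.0, 51.9, 15.4 and 22.1 CPM to 344, 555, 436 and 382 CPM (log2 difference 3.87 ± 0.19 SE, adjusted p = 3.56e-06), and Cldn18, a tight junction protein of the stomach, from 0.214, 0.309, 0 and 0.419 CPM to 5.32, 17.8, 15.6 and 11.2 CPM (log2 difference 5.36 ± 0.40 SE, adjusted p = 2.10e-05, and 6.04 without VApcMinL replicate 2). Tff2, a trefoil peptide of mucous neck cells, was at 42.6, 523, 655 and 42.9 CPM in adenoma and 13.9, 16.1, 6.45 and 1.96 CPM in crypt cells (log2 difference 4.30 ± 0.69 SE, adjusted p = 0.00116, and 5.38 without ApcMin replicate 1). Atp4a, the proton pump of parietal cells, rose with a log2 difference of 3.12 and Pgc, a pepsinogen, with 2.36 (2.95 without ApcMin replicate 1). Anxa10 was the member that fell (log2 difference -1.47 ± 0.20 SE, adjusted p = 5.37e-04), and it was at 0.12 when Clca3b was left out of the rule. In barcodes of 1 to 100 UMIs, which carry mostly free RNA, the list stood at 520.0 to 1628 CPM, and the part of free RNA in these values was not tested.

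The largest rises by the naming rule were Ptn, Sbspon, Pnliprp1, Wif1, Bpifb5, Spock2, Gpx5, Slc38a4, Col9a3, Tesc, Pnoc and Htra1, with log2 differences from 7.03 to 5.64. They were drawn from 718 called genes that rose in all 4 libraries and reached a mean of 50 CPM. Ptn (ENSMUSG00000029838, GRCm38 chr6:36714929-36810220), which encodes the heparin-binding growth factor pleiotrophin, was at 10.0, 132, 106 and 28.3 CPM in adenoma and 0, 2.16, 0 and 0.140 CPM in crypt cells (log2 difference 7.03 ± 0.38 SE, adjusted p = 5.10e-06). It rested on 8 UMIs in crypt cells, and without VApcMinL replicate 1 its value was 9.26. Sbspon, a secreted protein with somatomedin and thrombospondin repeats, was at 38.1, 233, 155 and 45.6 CPM against 0.641, 1.85, 0.195 and 0.838 CPM (log2 difference 6.75 ± 0.31 SE, adjusted p = 2.54e-06).

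The rises were uneven across libraries to different degrees. Pnliprp1, a lipase relative, was at 2.78, 216, 170.3 and 3.19 CPM, Bpifb5, a member of the bactericidal/permeability-increasing family, at 17.1, 429, 439 and 15.7 CPM, and Spock2, a secreted proteoglycan, at 2.11, 155, 146 and 1.83 CPM in adenoma cells. For all 3, VApcMinL replicate 1 and ApcMin replicate 2 were far above the other two. Their crypt values were 0.214, 2.78, 0.586 and 0 CPM, 0.641, 8.03, 1.37 and 0.140 CPM and 0, 3.09, 0.586 and 0.140 CPM, highest each time in VApcMinL replicate 1, and of the 3 only Spock2 overlapped between the states. Leaving out that library raised their differences to 7.53, 7.45 and 7.29. Tesc, a calcium-binding protein, was more even, at 121, 321, 343 and 163 CPM against 2.78, 4.01, 2.54 and 4.19 CPM (log2 difference 5.80 ± 0.25 SE, adjusted p = 2.28e-06), as was Slc38a4, an amino acid transporter, at 61.3, 242, 171 and 63.3 CPM against 1.07, 3.09, 1.17 and 1.68 CPM (log2 difference 5.95 ± 0.22 SE, adjusted p = 1.87e-06). Both were still highest in VApcMinL replicate 1 and ApcMin replicate 2, as were Ptn and Sbspon. Gpx5, Col9a3, Pnoc and Htra1 were highest in difference in ApcMin replicate 2 and stood at 5.24, 5.08, 4.57 and 4.99 without it.

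**Figure D5:**
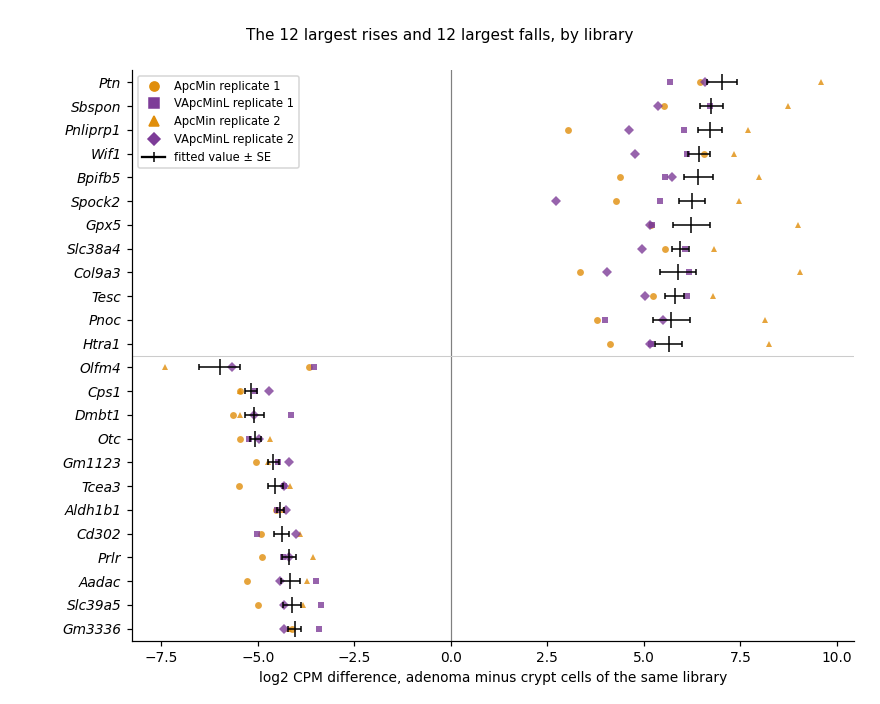
Log2 difference between adenoma and crypt cells of the same library for the 12 largest rises (above the line) and 12 largest falls (below it); each point is 1 library, and the black tick with its bar is the edgeR value ± SE. The rises spread over several log2 units between libraries, while most falls from Cps1 down to Gm3336 keep within a narrower range.

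The largest falls were Olfm4, Cps1, Dmbt1, Otc, Gm1123, Tcea3, Aldh1b1, Cd302, Prlr, Aadac, Slc39a5 and Gm3336, with log2 differences from -5.98 to -4.05, out of 1202 eligible genes. Cps1 (ENSMUSG00000025991, GRCm38 chr1:67123026-67231259) and Otc encode consecutive mitochondrial enzymes that turn ammonia into citrulline in the intestine. Cps1 was at 489.6, 419.7, 472 and 449.5 CPM in crypt and 12.2, 13.9, 12.5 and 19.7 CPM in adenoma cells (log2 difference -5.17 ± 0.15 SE, adjusted p = 1.21e-06). Otc was at 91.9, 74.7, 185 and 174 CPM in crypt and 2.19, 2.12, 8.25 and 6.21 CPM in adenoma cells (log2 difference -5.06 ± 0.14 SE, adjusted p = 1.01e-06). Neither came near to overlapping, and the 4 libraries gave close values for Cps1.

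Other falls were of similar size. Dmbt1, a secreted scavenger receptor that binds bacteria, was at 1578, 1512, 1779 and 1835 CPM in crypt and 34.9, 96.6, 47.1 and 61.5 CPM in adenoma cells (log2 difference -5.09 ± 0.25 SE, adjusted p = 3.44e-06). Aldh1b1, a mitochondrial aldehyde dehydrogenase of progenitor cells, fell from 335, 258, 355 and 393 CPM to 16.1, 12.6, 20.3 and 23.1 CPM and had the smallest adjusted p of all genes (log2 difference -4.42 ± 0.09 SE, adjusted p = 3.56e-07). Prlr, the prolactin receptor, fell from 49.8, 41.7, 67.8 and 80.8 CPM to 1.77, 2.20, 6.53 and 4.99 CPM (log2 difference -4.20 ± 0.19 SE, adjusted p = 2.53e-06), and Slc39a5, a zinc transporter, from 85.5, 79.4, 75.8 and 78.1 CPM to 2.87, 8.64, 6.07 and 4.37 CPM (log2 difference -4.12 ± 0.23 SE, adjusted p = 5.98e-06). Leaving out any 1 library kept these falls past the threshold.

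Because Hnf4a fell, promoters of the falls were searched for 3 spellings of an HNF4-type core, CAAAGTCC, CAAAGTTC and CAAAGGTC, on both strands. They occurred in 3.57% of all promoters. Of the 12 falls 10 were matched, and 2 of their 13 promoters (15.4%) held a match, those of Otc and Cd302. The 250 bases before the start of Cd302, a C-type lectin receptor, at chr2:60284485-60284734 on the minus strand are shown with the match in capitals.
Cd302: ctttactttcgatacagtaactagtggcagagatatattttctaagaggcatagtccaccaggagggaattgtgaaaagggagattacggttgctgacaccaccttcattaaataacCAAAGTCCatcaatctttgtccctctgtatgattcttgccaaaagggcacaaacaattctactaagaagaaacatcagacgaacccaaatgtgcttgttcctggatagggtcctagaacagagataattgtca
The match lay 133 bases before the start. With 2 matches, the share is a description only.

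Enterocyte genes were lower in adenoma cells than in crypt cells, although neither state is mature. Of 20 members, 13 were lower and 7 did not pass the test, with a median of -1.17. The size depended on the setting. Without Fgfbp1 in the rule 10 were lower and 1 was higher (median -0.79), and without Clca3b 12 and 1 (median -0.78). With no library block 8 were lower, and without VApcMinL replicate 2 the counts were 11 lower and 3 higher. Prap1, which binds fat for export, fell from 1060.1, 1486, 1323 and 969.9 CPM to 150.3, 340.1, 237 and 183 CPM (log2 difference -2.65 ± 0.11 SE, adjusted p = 2.28e-06). Mttp, which loads lipoproteins, Gsta1, a detoxifying transferase, and Vil1, the brush border protein villin, fell by log2 differences of -1.90, -2.35 and -0.96. The summed level of the list was 1270 to 4325 CPM in adenoma cells, 4212 to 6642 CPM in crypt cells and 11003 to 30979 CPM in barcodes of 1 to 100 UMIs. The part of free RNA in these levels was not tested.

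Defence genes were lower as well. Of 8 tested Reg lectins and epithelial defence genes, 7 were lower and 1 was higher, with a median of -2.72. Reg3b and Reg3g, lectins that kill bacteria, were at 1723, 1727, 3002 and 4247 and 1590.0, 1202, 1366 and 2315 CPM in crypt cells and at 171, 213, 233 and 328 and 243, 204, 442 and 273 CPM in adenoma cells. They fell by log2 differences of -3.63 and -2.69 with no overlap. Pigr, which carries antibodies of the IgA class to the lumen, fell from 894, 863, 965 and 1055 CPM to 129, 191, 157 and 170.0 CPM (log2 difference -2.75 ± 0.11 SE, adjusted p = 2.00e-06). Reg4 fell with a log2 difference of -3.58, and Duox2 with its maturation factor Duoxa2, which make hydrogen peroxide, with -3.02 and -2.63.

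Lcn2, which withholds iron from bacteria, was the exception. It stood at 8.02, 318, 178 and 7.42 CPM in adenoma and 5.13, 5.25, 1.76 and 8.24 CPM in crypt cells, high only in adenoma cells of VApcMinL replicate 1 and ApcMin replicate 2 (log2 difference 3.12 ± 1.09 SE, adjusted p = 0.0423). The call was lost without either of those 2 libraries (log2 2.05 each, adjusted p up to 0.19), and without VApcMinL replicate 2 the value was 4.68. With the kit as a replicate block it was not called (adjusted p = 0.0626).

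Genes for antigen presentation by MHC class I were partly lower. Of 8 members, 4 were lower and 4 did not pass the test, with a median of -0.80. B2m, the shared light chain, fell from 539, 601, 322 and 237 CPM to 118, 226, 159 and 58.2 CPM (log2 difference -1.85 ± 0.18 SE, adjusted p = 7.64e-05). Psmb8 and Psmb9, catalytic subunits of the immunoproteasome, fell with log2 differences of -1.5025 and -2.64. Of 6 class II genes 1 was lower, H2-DMa (log2 difference -1.84 ± 0.39 SE, adjusted p = 0.00506, and -1.19 without VApcMinL replicate 2).

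BMP pathway genes rose in the main. BMP ligands oppose stem cell renewal in the intestine, and Id genes are their common targets. Of 16 tested members, 12 were higher and 2 lower, with a median of 1.86. Id2 was at 246, 269, 217 and 217 CPM in adenoma and 20.5, 13.6, 11.7 and 20.1 CPM in crypt cells (log2 difference 3.65 ± 0.16 SE, adjusted p = 2.28e-06). Id3 was at 637, 802, 631 and 639 CPM against 125, 131, 66.6 and 117 CPM (log2 difference 2.47 ± 0.14 SE, adjusted p = 5.88e-06) and Id1 at 693, 620.2, 601 and 665 CPM against 269, 329.5, 156 and 228 CPM (log2 difference 1.25 ± 0.14 SE, adjusted p = 1.86e-04). None of the 3 overlapped, and the differences were close between libraries.

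Of the same list, Msx1 (ENSMUSG00000048450, GRCm38 chr5:37820485-37824583), a homeobox gene, was at 163, 28.0, 43.6 and 216 CPM in adenoma and 2.35, 0.309, 0 and 9.22 CPM in crypt cells (log2 difference 5.12 ± 0.35 SE, adjusted p = 1.36e-05). Here ApcMin replicate 1 and VApcMinL replicate 2 were the high libraries, and without the latter the value was 6.39. Bambi, a decoy receptor, and Smad6 and Smad7, which block the signal inside the cell, rose by 2.62, 1.87 and 1.22 on the log2 scale. Bmp7 rose from 4.91, 2.78, 4.69 and 3.07 CPM to 16.2, 31.2, 25.2 and 16.3 CPM (log2 difference 2.24 ± 0.23 SE, adjusted p = 1.10e-04). Bmp3, a ligand that opposes the others, fell from 25.6, 22.2, 39.5 and 46.4 CPM to 0.422, 0.734, 1.78 and 1.39 CPM (log2 difference -5.16 ± 0.19 SE, adjusted p = 1.87e-06), with no overlap.

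Notch genes gave 4 higher and 3 lower of 11, with a median of 0.16. Hey1, a target of the pathway, was at 20.001, 25.0, 15.9 and 15.0 CPM in adenoma and 0.427, 0.309, 0.195 and 0.699 CPM in crypt cells (log2 difference 5.13 ± 0.29 SE, adjusted p = 5.81e-06, and 5.79 without VApcMinL replicate 2). Hes6 rose (log2 difference 1.46 ± 0.09 SE, adjusted p = 9.74e-06), as did the ligand Jag2 (log2 difference 2.41 ± 0.31 SE, adjusted p = 3.77e-04). The ligand Dll1, carried by secretory progenitors, fell (log2 difference -2.06 ± 0.29 SE, adjusted p = 5.80e-04), as did Nrarp, a feedback inhibitor (log2 difference -1.68 ± 0.17 SE, adjusted p = 9.44e-05), and Jag1 (log2 difference -0.87 ± 0.16 SE, adjusted p = 0.00215). Hes1, the main effector in the crypt, had 208, 169.8, 127 and 118 CPM in adenoma and 151, 147, 84.0 and 102 CPM in crypt cells and did not pass the test (log2 difference 0.17 ± 0.09 SE, adjusted p = 0.139).

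Genes of fetal-like and regenerating epithelium gave 6 higher of 10, with a median of 1.70, and the other 4 did not pass the test. Clu (ENSMUSG00000022037, GRCm38 chr14:65968483-65981547), a chaperone and marker of revival stem cells, was among the most abundant, at 2084, 4222, 3401 and 2093 CPM in adenoma and 126, 201, 111 and 123 CPM in crypt cells (log2 difference 4.17 ± 0.15 SE, adjusted p = 1.87e-06). Spp1, the matrix protein osteopontin, rose from 8.76, 2.16, 0.586 and 3.35 CPM to 80.003, 70.6, 149 and 133 CPM (log2 difference 4.70 ± 0.47 SE, adjusted p = 8.71e-05, and 5.66 without ApcMin replicate 1). Cyr61, a target of YAP, rose by 1.499 on the log2 scale.

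EGF receptors and their ligands showed no single direction. Of 9 members, 3 were higher and 4 were lower. Egfr and Erbb3 fell by 0.93 and 1.10 on the log2 scale without overlap. The ligands Btc, at 46.2, 38.8, 41.0 and 50.6 CPM in adenoma against 13.5, 13.3, 12.1 and 12.7 CPM in crypt cells (log2 difference 1.59 ± 0.11 SE, adjusted p = 1.21e-05), and Tgfa (log2 difference 1.43 ± 0.16 SE, adjusted p = 1.74e-04) rose, while the ligand Hbegf fell (log2 difference -0.53 ± 0.18 SE, adjusted p = 0.0360) with overlapping levels, a call lost without replicate 1 of either group (adjusted p up to 0.117) and under 15 of 25 settings in all. Errfi1, a feedback inhibitor of these receptors, rose by 0.47. Of 12 immediate early genes, which respond to handling and growth signals, 6 were higher and 1 lower, with a median of 0.31. Ier3 (log2 difference 1.98 ± 0.11 SE, adjusted p = 6.02e-06), Atf3 (log2 difference 1.35 ± 0.14 SE, adjusted p = 8.99e-05) and Dusp1 (log2 difference 0.79 ± 0.10 SE, adjusted p = 3.46e-04) were among those higher.

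Secretory cell genes did not move together. Of 14 Paneth and goblet genes, 6 were lower and 3 higher, with a median of -0.25. Muc2, the main mucin of goblet cells, fell from 157, 175, 820.3 and 692 CPM to 25.1, 47.9, 121 and 90.1 CPM (log2 difference -2.76 ± 0.17 SE, adjusted p = 9.42e-06). Tff3, a goblet cell peptide, Spink4 and Atoh1, the factor that commits cells to the secretory fate, fell with log2 differences of -2.98, -3.105 and -3.17, without overlap. Lyz1 and Itln1, carried by Paneth cells, were higher (log2 difference 1.06 ± 0.30 SE, adjusted p = 0.0167, and log2 difference 1.60 ± 0.48 SE, adjusted p = 0.0238), but the call of Lyz1 was lost without replicate 1 of either group (adjusted p up to 0.0642) and that of Itln1 without either of these or ApcMin replicate 2 (up to 0.0942), and both values fell below 0, to -0.54 and -0.40, when Nkd1 was left out of the rule. Their levels overlapped between the states, and in barcodes of 1 to 100 UMIs the list summed to 5260.0 to 12486 CPM.

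Genes of tuft cells were higher for 6 of 6 tested members, with a median of 3.42. Crypt cells had been denied Dclk1 and adenoma cells had not. With the same exclusions asked of both states, 3 members were left to test and 2 were higher, with a median of 1.99, and Alox5ap turned from 1.496 to -1.01. Avil, an actin-binding protein of tuft cells, was at 90.3, 143, 144 and 132 CPM in adenoma and 4.70, 10.8, 2.74 and 4.89 CPM in crypt cells (log2 difference 4.37 ± 0.24 SE, adjusted p = 5.77e-06) and was still higher under those exclusions (log2 4.35, adjusted p = 6.46e-06). Of 12 enteroendocrine genes 2 were higher and 1 lower, and here too crypt cells alone had been denied the marker Chga. With the exclusions asked of both states, 1 of 8 tested members was higher and none lower. Pyy, a gut hormone, had a value of 2.73, which was 0.24 under those exclusions (adjusted p = 0.729) and 0.61 without VApcMinL replicate 2 (adjusted p = 0.476).

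Markers of other cell types that a droplet could also hold were checked as whole lists. Of 15 immune genes, 4 were higher and 11 did not pass the test, a share higher close to the 27.4% over all genes tested. Crypt cells had been denied Ptprc and adenoma cells had not. With the same exclusions asked of both states 2 were higher, and without ApcMin replicate 2 or without VApcMinL replicate 2 none was higher and 1 was lower. Their summed level was 32.5 to 583 CPM in adenoma cells, 19.3 to 610 CPM in crypt cells and 689 to 8824 CPM in barcodes of 1 to 100 UMIs. Of 11 stromal and red cell genes, 3 were higher and 8 did not pass the test, again close to the 27.4% over all genes. Their sum was 81.7 to 612 CPM in adenoma and 2.93 to 486 CPM in crypt cells, with the highest value of both lists in ApcMin replicate 1. Cdh5, a cadherin best known from vessels, was at 74.5, 42.3, 68.5 and 76.8 CPM in adenoma and 2.78, 4.01, 0.195 and 1.54 CPM in crypt cells (log2 difference 4.93 ± 0.38 SE, adjusted p = 2.45e-05). Vwf, a clotting factor made by vessel cells, was at 4.22, 2.20, 3.30 and 4.93 CPM against 1.28, 0.309, 0.195 and 0.419 CPM (log2 difference 2.64 ± 0.42 SE, adjusted p = 0.00111, and 3.35 without ApcMin replicate 1). Pecam1, also a vessel gene, was at 1.77, 1.79, 0.462 and 0.651 CPM against 3.21, 2.47, 0.195 and 0 CPM and did not pass the test (log2 difference -0.11 ± 0.63 SE, adjusted p = 0.904). With the deepest 5% of cells and all cells with a Ptprc UMI left out, an alternative chosen after the data were seen, 3431 genes were higher and 3092 lower.

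Whether the difference between adenoma and crypt cells depended on the Lef1 genotype was asked with a term for state by genotype, with 2 libraries a group. No gene passed edgeR's test (0%), and 141 had an unadjusted p under 0.05, with 0.213 as the lowest adjusted p. By DESeq2, 4 genes were called, all with a negative term, that is a lower adenoma minus crypt value in VApcMinL than in ApcMin. For Lef1 itself the term was -2.19 ± 1.37 (SE; unadjusted p = 0.152), on few crypt UMIs. For Wif1 it was -1.85 ± 0.67 (unadjusted p = 0.0262) and for Msx1 -1.85 ± 0.66 (unadjusted p = 0.0245), both with an adjusted p of 1. In adenoma cells, the libraries that were high for Wif1, Spock2 and Lcn2 were 1 of each label and 1 of each kit. A count of 0 with 2 libraries a group does not show that the genotypes were alike. Adenoma and crypt cells with Xist alone came only from VApcMinL libraries, so the term cannot tell genotype from sex.

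The share of adenoma cells among adenoma and crypt cells was 66.0% (exact binomial 95% interval 62.3 to 69.5%) and 73.8% (69.7 to 77.7%) in the ApcMin libraries. In the libraries labelled VApcMinL it was 78.6% (75.3 to 81.6%) and 87.7% (86.3 to 89.0%). The intervals cover counting error only. The group means were 69.9% ± 5.55 and 83.1% ± 6.45 (SD, n = 2), a difference of 13.2 points (two-sided exact permutation p = 0.333, the smallest that 2 against 2 can give). It was 12.6 points within kit 2 and 13.9 points within kit 3. After thinning every cell to 4000 UMIs before the states were assigned, the differences were 33.5 and 2.87 points. The amount of normal tissue taken with each tumor was not measured, and genotype cannot be told apart from sex in these shares.

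In VApcMinL replicate 2, cells with only Xist and cells with only Y-linked UMIs gave 2 sets of adenoma and crypt sums from 1 library. Lef1 was at 21.2 CPM in adenoma cells with Xist and 23.7 CPM in those with Y-linked UMIs, against 1.37 and 0.504 CPM in crypt cells. Cps1 was at 23.0 and 13.1 CPM in adenoma against 431 and 459 CPM in crypt cells, and Muc6 at 142 and 127 CPM against 5.96 and 3.27 CPM. Msx1 was at 157 and 242 CPM against 2.75 and 14.1 CPM. For these genes both sets showed the direction of the whole library. The sets went opposite ways for Defa30 and Clca1, which are given further on. Entered as separate pairs, they gave 3833 higher and 3326 lower genes, an alternative chosen after the data were seen.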

How the data were processed

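Single-cell 3′ RNA sequencing was run on 4 libraries of unsorted adenoma cells, and the authors deposited raw UMI counts for each gene in each barcode. Per the study's methods these came from Cell Ranger 2.1.1 with an mm10 (GRCm38) reference, while the headers of the kit 3 matrices name version 3.1.0. The 27514 genes shared by all tables were kept, and those left out held 0.204 to 0.563% of UMIs. The adenoma and crypt states were assigned by the rule given in the report, and no doublet caller was run. UMIs were summed per library and state, so cells were not treated as replicates.

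The sums were tested with edgeR 4.0.16 in R 4.3.3 (quasi-likelihood test, TMM scaling, filterByExpr with a minimum count of 10, Benjamini-Hochberg adjustment over all genes tested, called at 0.05) with library and state as terms, leaving out the 9 rule genes. Per-library differences used a prior count of 2. A second fit added the state by genotype term, and DESeq2 1.42.0 served as an alternative. The fit left 3 residual degrees of freedom. In simulated counts for 12726 genes of the adenoma against crypt comparison, 94 of 97 genes changed by 2 log2 units and 66 of 99 changed by 1 were called, with 5 false calls. Rises and falls were equally many there, and the dispersion was fixed at 0.05, against a common value of 0.019 in the data. With so few changed genes, the simulation does not check TMM scaling where 52.1% of genes were called.

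Named genes were list members and, beyond them, the 12 largest rises and 12 largest falls among called genes with 1 direction in 4 libraries and a mean of at least 50 CPM in the higher state. The states, members and lists were chosen with earlier results of these data known. The replicate numbers pair the libraries by kit, as the labels state. Libraries of a kit had a correlation of their deviations across 12946 genes of -0.25 for the state difference, 0.17 for the adenoma level and 0.42 for the crypt level. Promoters were taken from RefSeq, and gene positions from GENCODE on the same build. A few list members are counted but not reported here by name.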

Additional observations from a re-analysis of the deposited data

Results flagged for a closer look

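Defa30, a Paneth cell defensin, stood out because the difference between adenoma and crypt cells had 1 sign in both ApcMin libraries and the other sign in both libraries labelled VApcMinL. It was 3.52 and 1.16 on the log2 scale in ApcMin replicates 1 and 2, and -0.56 and -1.996 in VApcMinL replicates 1 and 2. The genotype term was -3.79 (edgeR unadjusted p = 0.00191, adjusted p = 1). Its level in adenoma cells was 1404 and 1142 CPM under the ApcMin label and 8.97 and 436 CPM under the VApcMinL label, and barcodes of 1 to 100 UMIs held 1305, 271, 416 and 364 CPM in the library order of the report. In VApcMinL replicate 2, cells with only Xist held 704 CPM of Defa30 in adenoma and 46.3 CPM in crypt cells. Cells with only Y-linked UMIs held 293 and 2689 CPM, so the sign differed inside that library. Adenoma and crypt cells with Xist alone came only from VApcMinL libraries, so genotype and sex cannot be told apart for Defa30 or Clca1. Defensin genes are near copies of one another, so their counts are uncertain.

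Clca1, a goblet cell gene, stood out for the same reason, with -0.64 and -0.78 in the ApcMin libraries and 0.35 and 0.34 in those labelled VApcMinL. In VApcMinL replicate 2, Clca1 was at 2.60 CPM in adenoma and 4.58 CPM in crypt cells with only Xist. With only Y-linked UMIs, Clca1 was at 16.1 and 12.1 CPM. Its genotype term was 1.11 (edgeR unadjusted p = 0.0116, adjusted p = 1).

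Xist was found in barcodes outside every comparison. Barcodes of 1 to 100 UMIs held 198 CPM of Xist in ApcMin replicate 1 and 129.7 CPM in ApcMin replicate 2, while adenoma cells of these libraries were at 0.0844 and 0.0660 CPM. The same class of barcodes held 625 and 213 CPM in VApcMinL replicates 1 and 2. No group of 4 or more libraries existed, so single outlying libraries were not searched for.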

How the results depend on the processing

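Genes higher and lower in adenoma than in crypt cells numbered 3548 and 3201. Summing cells thinned to 4000 UMIs gave 2009 and 1851, cells with no cycling UMI 1318 and 1246, and no library block 2406 and 1832; the thinned and non-cycling sums had fewer genes to test. Leaving out 1 library at a time gave 2866 to 3266 higher and 2409 to 2792 lower genes, and the replicate block by kit 3325 and 2968. For the genotype term the count of 0 became 4 with DESeq2, 23 with no filter on low counts and 1 with thinned cells, and 0 to 6 with 1 library left out; the replicate block gave 0 and symmetric exclusions gave 0. With crossed pairs, chosen after the data were seen, 28 genes were called. The share difference of 13.2 points kept its sign in every setting run, from 8.65 to 17.8 points with 1 library left out.

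For 173 named genes under 25 settings, 4032 of 4266 values kept their direction and call, and 10 changed sign. Without Nkd1 in the rule Lyz1 was at -0.54, Itln1 at -0.40 and Pyy at -0.0203, and without Prox1 Lyz1 was at -0.11. Without Clca3b Anxa10 was at 0.12. With exclusions asked of both states Alox5ap was at -1.01. In cells with no cycling UMI Fcgbp was at 0.19, Zg16 at 1.39 and Myc at -0.0204, and with 1 library left out Myc was at -0.0659 (without VApcMinL replicate 2) to 0.39. The causes were not tested. Apart from Ccnd1, Lgr5, Neurog3, Bmp2, Bmp4 and Lcn2, the replicate block changed no call of a named gene. The planned removal of likely doublets left 0 cells in 1 state of ApcMin replicate 1 and could not be fitted. The smallest summed depth was that of the crypt cells of VApcMinL replicate 1, with 3237925 UMIs.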

Other observations

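Adenoma cells were not uniform within a library. After thinning to 4000 UMIs a cell, Wif1 was detected in 17 of 460, 186 of 550, 86 of 367 and 99 of 2038 adenoma cells, in the library order of the report. The split was chosen after the values were seen, and no test was made. Spock2 was at 44.1, 531, 721 and 30.3 CPM in cells with Wif1 and at 0.564, 57.0, 51.6 and 0.387 CPM in cells without it. Pnliprp1 was at 132 and 0.564 CPM, 640 and 92.0 CPM, 608 and 63.2 CPM, and 25.3 and 2.19 CPM. Bpifb5, Lcn2, Lef1, Axin2 and Lgr5 were likewise higher in cells with Wif1 in all 4 libraries. In ApcMin replicate 1 these values rest on 17 cells with Wif1.

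Other adenoma genes did not follow Wif1 in every library. Tff2 was lower in cells with Wif1 in 3 libraries, at 14.7 against 48.0 CPM (1 UMI in cells with Wif1) in ApcMin replicate 1, 22.8 against 819 CPM in VApcMinL replicate 1 and 7.58 against 47.8 CPM in VApcMinL replicate 2. In ApcMin replicate 2 it was higher, at 1363 against 192 CPM. Msx1 was at 118, 56.5, 81.4 and 258 CPM in cells with Wif1 and at 168, 15.1, 36.5 and 215 CPM in cells without it. It was thus lower with Wif1 only in ApcMin replicate 1, on 8 UMIs. Cdx1 and Cdx2 were lower in cells with Wif1 in every library, on few UMIs. Mki67 was close between the sets in every library, at 73.5, 51.1, 145 and 159 CPM against 67.2, 48.1, 121 and 159.5 CPM. Median depth before thinning was 19828, 16420, 28766.5 and 29326 UMIs in cells with Wif1 and 22907, 19556.5, 35177 and 26894 UMIs in those without.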
